A study of Homo sapiens with 18 samples.

Results

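The AKR1 genes encode aldo-keto reductases, and 7 of the 57500 genes in the deposited tables carry a symbol chosen for this description: AKR1C1, AKR1C2, AKR1C3, AKR1C4, AKR1A1, AKR1B1 and AKR1B10. They were chosen by the read counts of shNR4A2 against the other cells, where AKR1C2 and its neighbours had been seen to be higher, so the comparisons of shNR4A2 cells with the other lines are given below as a description with no p-value, and nothing is read from calls in them. The cells were THP-1, an established line from a human monocytic leukaemia, and stably carried a lentiviral short hairpin RNA with no target (shNT), one against NR4A2 (shNR4A2) or one against NR4A3 (shNR4A3), and all 3 lines were kept under puromycin. Cells stood for 2 h in buffered medium and were then left untreated (control) or given LPS at 2.5 μg/ml for a further 2 h, with 3 libraries in each of the 6 groups and 18 in all. The libraries of a group were described by the study as independent experiments. Each hairpin is represented by 1 line, so an effect of the hairpin and a property of that line cannot be told apart, and whether a line was a clone or a pool was not given in the sources used here. Totals ran from 16171161 to 23929138 counted reads per library, with a median of 19639071.

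Aldo-keto reductases use NADPH to turn aldehydes and ketones into alcohols. The AKR1C enzymes act on ketosteroids, prostaglandins and reactive aldehydes, and their genes stand side by side on chromosome 10. AKR1A1 (aldehyde reductase) and AKR1B1 (aldose reductase) are widely expressed enzymes of glucuronate and sugar metabolism, and the latter makes sorbitol from glucose. Several genes of the family are textbook targets of NRF2, the transcription factor of the oxidative stress response. NR4A2 and NR4A3 are orphan nuclear receptors whose genes are switched on quickly by inflammatory stimuli.

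In GRCh38 coordinates, as deposited, AKR1C1 (ENSG00000187134) lay at chr10:4963253-4983283 on the plus strand and AKR1C2 (ENSG00000151632) at chr10:4987400-5018031 on the minus strand. AKR1C3 (ENSG00000196139) followed at chr10:5035354-5107686 and AKR1C4 (ENSG00000198610) at chr10:5195462-5218949, both on the plus strand. AKR1A1 (ENSG00000117448) was at chr1:45550543-45570049 on the plus strand. AKR1B1 (ENSG00000085662) was at chr7:134442350-134459284 on the minus strand, and AKR1B10 (ENSG00000198074) lay beside it at chr7:134527592-134541408 on the plus strand. All 7 are annotated as protein coding in GENCODE 29, and a count covers all exons of a gene, coding and untranslated. The merged exons measured 8765 bases in AKR1C1, 6461 in AKR1C2, 4532 in AKR1C3, 3121 in AKR1A1 and 3660 in AKR1B1, and these lengths set the TPM (a measure of transcripts, the count per base of exon, scaled to sum to 1000000 in each library).

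The sequences show how alike the AKR1C genes are, which bears on how their reads were assigned. Over 969 coding bases AKR1C1 and AKR1C2 differed at 19, an identity of 98.04%. AKR1C3 shared 91.23% of its coding bases with AKR1C2 and AKR1C4 shared 87.82%, whereas AKR1B1 and AKR1B10 shared 76.69% with each other. The likeness of AKR1C1 and AKR1C2 went on upstream of the RefSeq start sites used here, where 1 of 246 aligned bases differed. A stretch of that region is printed here from RefSeq (GRCh38.p14), read along the strand of each gene, with capitals for the bases that differ from AKR1C2, those inserted included. It lies at chr10:4963259-4963404 (plus strand) for AKR1C1, chr10:5003872-5004017 (minus strand) for AKR1C2, chr10:5048629-5048771 (plus strand) for AKR1C3 and chr10:5196668-5196809 (plus strand) for AKR1C4. Each stretch falls inside the deposited span of its gene, so it is upstream of the RefSeq start site used and not of the whole gene. A further AKR1C3 window, with its stretch at chr10:5094249-5094402, is not printed.
AKR1C1: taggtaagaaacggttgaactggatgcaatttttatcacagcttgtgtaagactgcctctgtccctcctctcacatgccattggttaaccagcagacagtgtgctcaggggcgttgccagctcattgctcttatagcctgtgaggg
AKR1C2: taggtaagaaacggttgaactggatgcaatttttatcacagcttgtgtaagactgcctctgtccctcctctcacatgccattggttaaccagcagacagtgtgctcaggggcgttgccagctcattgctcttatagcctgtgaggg
AKR1C3: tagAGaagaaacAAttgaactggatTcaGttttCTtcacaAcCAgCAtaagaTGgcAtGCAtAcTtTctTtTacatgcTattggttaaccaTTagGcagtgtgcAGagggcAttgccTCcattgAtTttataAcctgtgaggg
AKR1C4: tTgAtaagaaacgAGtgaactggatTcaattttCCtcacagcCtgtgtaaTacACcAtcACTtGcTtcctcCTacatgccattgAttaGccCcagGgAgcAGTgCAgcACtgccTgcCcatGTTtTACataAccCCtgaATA
The stretch was the same in AKR1C1 and AKR1C2 over all 146 bases. AKR1C3 matched AKR1C2 at 107 of 143 aligned bases (74.83%) and AKR1C4 at 68.79% of aligned bases. Windows of 250 bases before to 50 bases after the start sites were searched on both strands for the NR4A monomer site AAAGGTCA (named NBRE), for its shortened forms AAAGGTC and AAGGTCA, which lie within it, and for the core TGACNNNGC of the antioxidant response element bound by NRF2. AKR1B10 had no window to search. None of the 8 windows of the other 6 genes held any of these letters, and they stood in 1.216%, 3.016%, 3.921% and 13.35% of all 35116 windows, respectively. The study reported the form AAAGGTC farther upstream of AKR1C2, outside these windows.

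Reads from such similar genes can be assigned to the wrong one. In the GENCODE 29 transcripts, 13.68% of the 150-base windows of AKR1C2 and 10.05% of those of AKR1C1, at the length of 1 read, also occurred in another AKR1 gene. The share was 0.444% for AKR1C3 and 0 for AKR1C4, AKR1A1, AKR1B1 and AKR1B10. How reads with more than 1 match were counted was not given in the sources used here, so AKR1C1 and AKR1C2 are given as uncertain to that extent. AKR1C3 also shares 84 exonic bases on its strand with ENSG00000237831, which had 14 counts over the 18 libraries. The antisense gene AL391427.1 lies within AKR1C2 and shares no exonic base with it.

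The targeted gene was lower in each line that carried its hairpin. NR4A2 stood at 4.16, 2.83 and 4.08 TPM in shNT control cells and at 1.82, 1.63 and 2.41 TPM in shNR4A2 control cells, and after LPS at 62.2, 74.7 and 51.3 against 20.5, 28.3 and 14.8 TPM. The shNR4A2 libraries lay below the shNT libraries in both states, with log2 fold changes of -0.91 and -1.52. NR4A3 was lower in shNR4A3 than in shNT cells, with a log2 fold change of -2.47 ± 0.490 (SE, n = 3 per group, edgeR quasi-likelihood adjusted p = 0.00767) without LPS and -0.82 ± 0.0799 (adjusted p = 0.000556) with LPS. Without LPS its counts were 5, 3 and 1 in shNR4A3 against 20, 21 and 17 in shNT libraries. The size of that change therefore rests on few reads, and DESeq2 gave no adjusted p for it. NR4A2, which the hairpin in shNR4A3 cells was not made against, stood at 47.0 ± 12.1 TPM in shNR4A3 and 62.7 TPM in shNT cells with LPS, in overlapping groups (-0.36, edgeR adjusted p = 0.198, and -0.37 with adjusted p = 0.00132 and a call with the replicate block). It was also called lower without the filter on low counts (edgeR adjusted p = 0.0109) and without the second shNR4A3 library with LPS (-0.55, adjusted p = 0.0234). The other alternatives gave no call. All 12 monocytic markers of a fixed list exceeded a mean of 1 TPM, led by SPI1 at 776 TPM. Their summed level was 1350 TPM in shNT, 1990 TPM in shNR4A2 and 2290 TPM in shNR4A3 control cells, and its part in the differences between lines was not tested. Summed markers of T cells reached 1.40 TPM, of erythroid cells 0.710, of fibroblasts 1.95, of epithelial cells 2.42 and of hepatocytes 7.82 TPM at most in any library. B cell markers reached 10.9 TPM at most.

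Of the 7 genes, 5 passed edgeR's filter on low counts in every comparison. In shNT control cells AKR1A1 had the highest level per length, at 67.3, 66.9 and 70.5 TPM (68.2 ± 1.98, SD, n = 3). AKR1B1 followed at 46.7, 54.4 and 57.9 TPM and AKR1C2 at 53.4, 45.7 and 45.1 TPM, and the ranges of these 2 overlapped. AKR1C1 and AKR1C3 were lower, at 5.75 ± 0.329 and 5.40 ± 0.129 TPM, again with overlapping ranges. Thus AKR1C2 made up 80.7% ± 0.968 of the summed AKR1C level in these cells. AKR1C4, an enzyme known from liver, had 39 counts over all 18 libraries, no more than 5 in any and 0 in 2 of them. AKR1B10, known from gut epithelium and several carcinomas, had 11 counts in all, no more than 2 in any library and 0 in 11 of them. A count of 0 allows up to 3 counts, which is 0.241 to 0.355 TPM for AKR1C4 and 0.265 to 0.389 TPM for AKR1B10 depending on the library, so neither gene could be compared at this depth. Such limits cover counting error only.

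AKR1C2, a reductase that inactivates dihydrotestosterone, showed the largest difference between shNR4A2 and the other cells among the 5 genes that could be compared. It stood at 580, 510 and 534 TPM in shNR4A2 control cells, against 53.4, 45.7 and 45.1 TPM in shNT and 49.2, 35.7 and 37.7 TPM in shNR4A3 control cells. With LPS it stood at 459, 497 and 461 TPM in shNR4A2, 38.6, 41.5 and 37.1 TPM in shNT and 38.5, 30.4 and 31.9 TPM in shNR4A3 cells. Every shNR4A2 library exceeded every library of the other lines, as in 13.7% (shNT) and 12.7% (shNR4A3) of all genes tested without LPS and 10.8% and 11% with LPS, and the shNT and shNR4A3 ranges overlapped in both states. Relative to shNT cells this was an 11.3-fold level without LPS (log2 fold change 3.49 ± 0.114, SE) and a 12.6-fold level with LPS (3.65 ± 0.0866). By TPM, AKR1C2 was the gene of median rank 3676 in shNT control libraries and 216 in shNR4A2 control libraries. In bulk RNA a change in the number of expressing cells and a change in RNA per cell cannot be told apart.

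AKR1C1, which inactivates progesterone, was higher in the same cells by a smaller factor. It stood at 15.8, 12.5 and 12.7 TPM in shNR4A2 control cells against 6.11, 5.46 and 5.69 TPM in shNT, and at 11.7, 11.7 and 10.5 against 4.51, 4.21 and 4.31 TPM with LPS. The groups did not overlap, as in 13.7% of all genes tested without and 10.8% with LPS, and the fold differences were 2.38 and 2.70. AKR1C3, known as prostaglandin F synthase and as a maker of testosterone, stood at 8.32, 12 and 12.3 TPM in shNR4A2 control cells against 5.54, 5.38 and 5.29 TPM in shNT, and at 8.96, 11.4 and 12.7 against 5.19, 5.29 and 4.68 TPM with LPS. Its first shNR4A2 library lay below the other two in both states, yet above every shNT library, and the fold differences were 2.01 without and 2.27 with LPS. AKR1A1 stood at 81.1 ± 8.46 TPM in shNR4A2 and 68.2 ± 1.98 TPM in shNT control cells (log2 fold change 0.25 ± 0.104, SE), and AKR1B1 at 48.1 ± 9.13 and 53.0 ± 5.71 TPM (-0.14 ± 0.145). The AKR1A1 groups did not overlap without LPS, as in 13.7% of all genes tested in that direction, and those of AKR1B1 did. With LPS both genes overlapped, AKR1A1 at 67.7 ± 6.61 against 61.1 ± 6.06 TPM (0.20) and AKR1B1 at 57.1 ± 8.11 against 55.7 ± 5.12 TPM (0.09).

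At an adjusted p under 0.05, 3 of the 5 genes that could be compared, all of them AKR1C genes, were called higher in shNR4A2 than in shNT cells without LPS, where 6.45% of all genes tested were called (3.63% higher), and with LPS, where 6.96% were (4.31% higher). The same 3 were called higher against shNR4A3 cells, where the share of all genes was 3.08% without LPS (1.94% higher) and 2.33% with LPS (1.27% higher). Since these contrasts served to choose the family, nothing is read from those counts. Against shNR4A3 control cells the log2 differences were 1.51 for AKR1C1, 3.68 for AKR1C2, 1.38 for AKR1C3, 0.05 for AKR1A1 and -0.19 for AKR1B1. The shNR4A2 libraries are shared by the comparisons with both other lines.

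**Figure D1:**
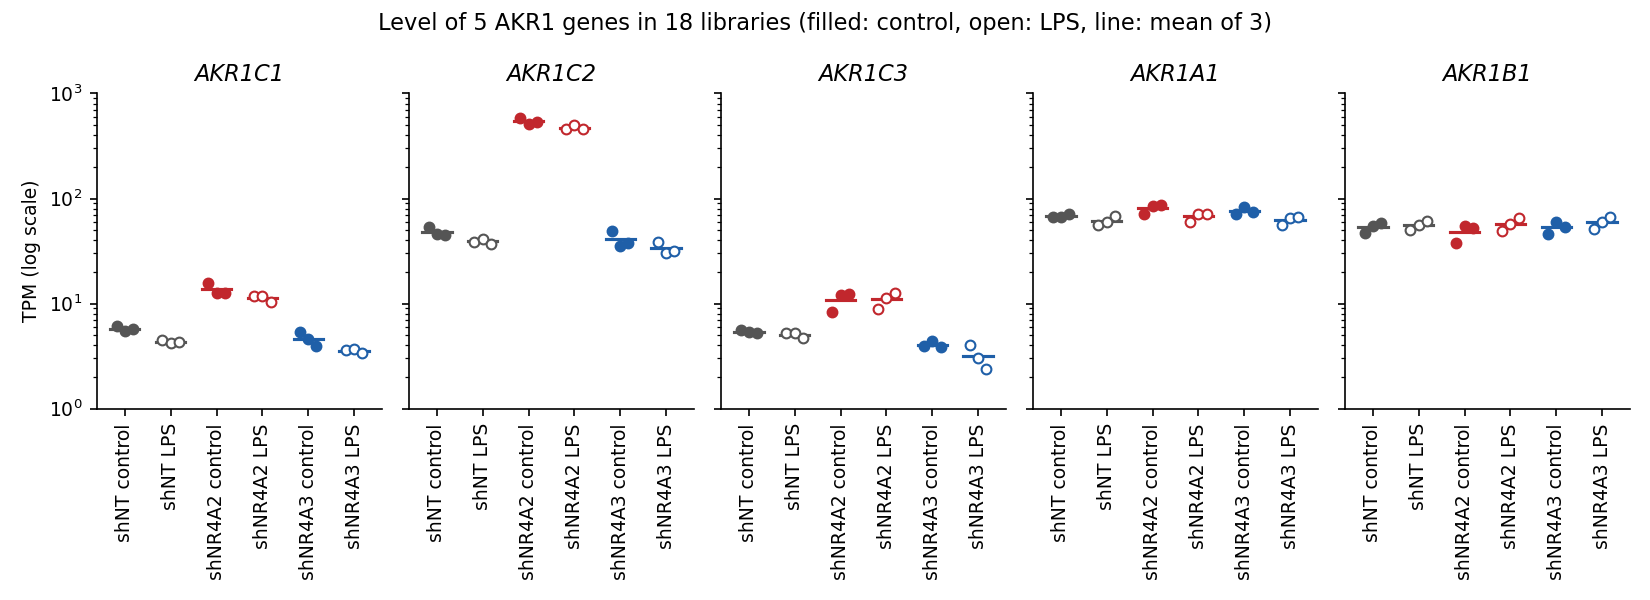
Level of AKR1C2, AKR1C1, AKR1C3, AKR1A1 and AKR1B1 in TPM (log scale) in each of the 18 libraries, by line and treatment, with filled points for control, open points for LPS and a line at the mean of 3. AKR1C2 lies between 459 and 580 TPM in shNR4A2 libraries and between 30.4 and 53.4 TPM elsewhere, while AKR1B1 overlaps between lines and AKR1A1 lies within 55.9 to 87.3 TPM throughout.

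The summed AKR1C level was 59.6 ± 5.00 TPM (SD, n = 3) in shNT, 566 ± 35.4 TPM in shNR4A2 and 49.7 ± 7.68 TPM in shNR4A3 control cells. AKR1C genes thereby held 81.4% of the summed level of the 7 genes in shNR4A2 control cells, against 33.0% in shNT and 27.8% in shNR4A3. Within the AKR1C genes AKR1C2 held a larger share, 95.6% ± 0.318 in shNR4A2 against 80.7% ± 0.968 in shNT and 82.0% ± 2.51 in shNR4A3 control cells.

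Because AKR1C1 and AKR1C2 share sequence, the reads added in shNR4A2 cells were set side by side. In CPM, counts scaled to a total of 1000000 per library, AKR1C2 stood at 84.7 in shNT and 960 in shNR4A2 control cells and AKR1C1 at 13.7 and 32.9. The reads added on AKR1C1 equalled 2.19% of those added on AKR1C2, and 2.18% with LPS, while 13.35% of AKR1C2's read-length windows occur in AKR1C1. The window share is for a single read, whereas the study sequenced both ends of each fragment, so these shares are unlike measures. For AKR1C3 the added reads equalled 0.788% and 0.975%. What part of the AKR1C1 difference came from reads of AKR1C2 was not tested. With the AKR1C genes added into 1 feature, for which a read given to the wrong one of them makes no difference (reads dropped or counted more than once still would), the log2 fold change was 3.25 without and 3.41 with LPS.

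**Figure D2:**
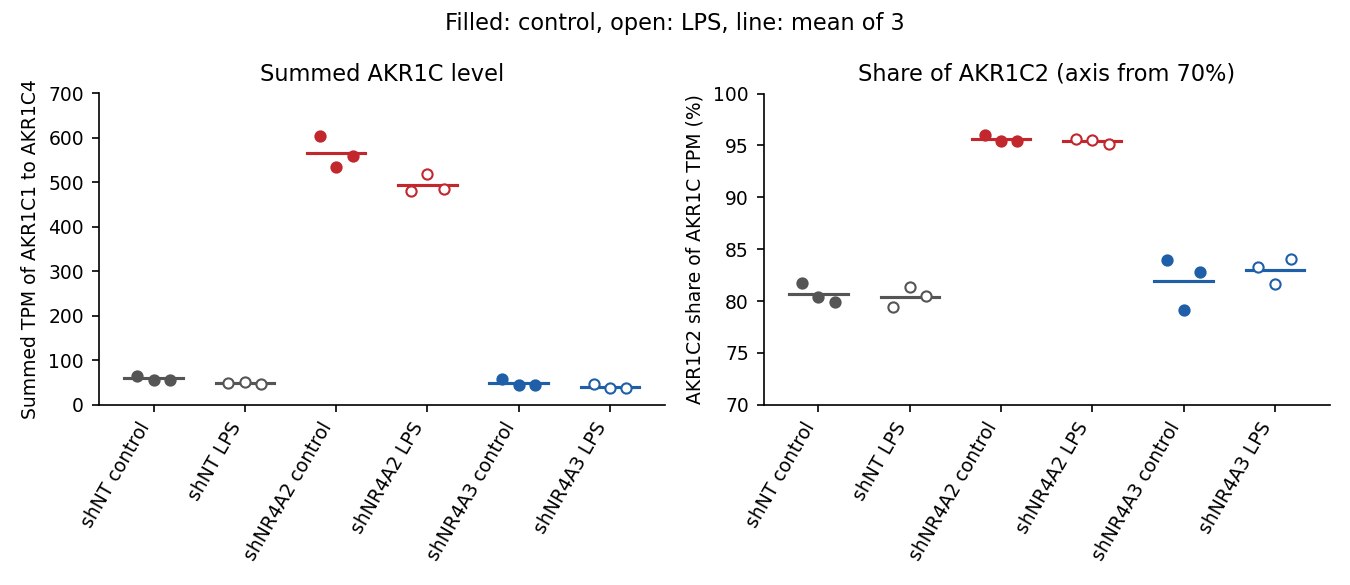
Summed TPM of AKR1C1 to AKR1C4 (left, axis from 0) and the percentage of it on AKR1C2 (right, axis from 70%) per library, with filled points for control, open points for LPS and a line at the mean of 3. The summed level is 566 TPM on average in shNR4A2 control libraries against 59.6 TPM in shNT, and the AKR1C2 share lies above 95% in every shNR4A2 library.

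Whether the family differed in cells with the hairpin against NR4A3 was tested by comparing shNR4A3 with shNT cells. There NR4A2 was also called lower with LPS under some alternatives, the replicate block among them. None of the 5 genes compared was called without LPS, where 7.23% of 15322 genes were called, and 3206 genes had an unadjusted p under 0.05. AKR1C1 stood at 5.39, 4.62 and 3.91 TPM in shNR4A3 against 6.11, 5.46 and 5.69 TPM in shNT (log2 fold change -0.26 ± 0.149, SE, edgeR adjusted p = 0.356). AKR1C3 stood at 3.91, 4.44 and 3.82 against 5.54, 5.38 and 5.29 TPM (-0.37 ± 0.161, adjusted p = 0.211). In both genes every shNR4A3 library lay below every shNT library, as it did for 14.6% of all genes tested. AKR1C2 overlapped between these lines (-0.18 ± 0.134, adjusted p = 0.492, 95% confidence interval -0.47 to 0.11), an interval that leaves out changes of the size seen in shNR4A2 cells. AKR1A1 stood at 70.8, 83.0 and 74.3 against 67.3, 66.9 and 70.5 TPM (0.20 ± 0.0864, adjusted p = 0.200) in groups that did not overlap, as for 9.67% of all genes in that direction, and AKR1B1 overlapped between the lines (0.06, adjusted p = 0.825).

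With LPS none of the 5 was called either, beside 6.45% of 15578 genes. AKR1C3 came nearest, at 4.04, 3.05 and 2.36 TPM in shNR4A3 against 5.19, 5.29 and 4.68 TPM in shNT. The groups did not overlap, as in 17.5% of all genes tested, and the log2 fold change was -0.62 ± 0.210 (SE, edgeR adjusted p = 0.114, 95% confidence interval -1.09 to -0.15). With the replicate number as a block, which is apt here since libraries of 1 number deviated together, AKR1C3 was called lower (-0.64, edgeR adjusted p = 0.0158), together with 3401 genes in place of 1005. It was also called without the filter on low counts (adjusted p = 0.0348) and without the first shNR4A3 library with LPS (-0.89, adjusted p = 0.0389). AKR1C1 gave -0.23 (adjusted p = 0.294) in groups that did not overlap either, AKR1C2 -0.15 (0.476), AKR1A1 0.09 (0.642) and AKR1B1 0.15 (0.465).

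**Figure D3:**
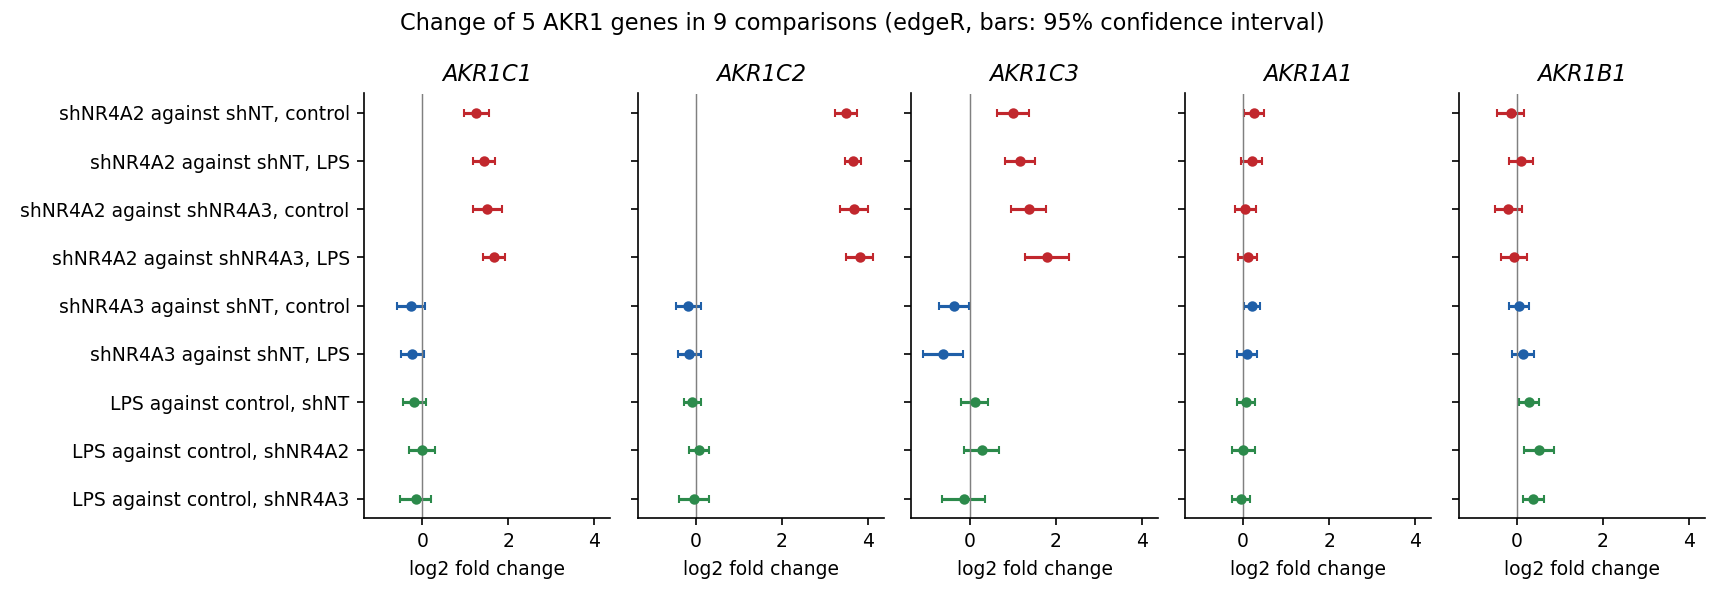
Log2 fold change of the 5 AKR1 genes in 9 comparisons (points, edgeR; bars are 95% confidence intervals). AKR1C2 stands between 3.49 and 3.81 in the comparisons of shNR4A2 cells with the other lines, and the intervals of AKR1C2 span 0 in the shNR4A3 and LPS comparisons.

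LPS at 2 h left the AKR1C genes and AKR1A1 without a called change in any line, and AKR1B1 was called higher in 2 of the 3 lines. The share of all genes called was 24.9% in shNT (11.6% higher), 19.3% in shNR4A2 (9.23% higher) and 28.1% in shNR4A3 cells (13.1% higher), so that 0, 1 and 1 of the 5 genes is near that background. AKR1B1 went from 37.6, 54.4 and 52.2 to 49.0, 57.1 and 65.2 TPM in shNR4A2 cells (log2 fold change 0.52 ± 0.161, SE, edgeR adjusted p = 0.0397). In shNR4A3 cells it went from 46.0, 60.1 and 54.1 to 51.6, 59.8 and 66.8 TPM (0.39 ± 0.114, adjusted p = 0.0259), and in shNT cells from 46.7, 54.4 and 57.9 to 50.4, 55.9 and 60.6 TPM (0.29 ± 0.106, adjusted p = 0.0599). The TPM ranges with and without LPS overlapped in every line. Libraries of 1 number moved the same way in 3 of 3 pairs in shNT and shNR4A2 cells and in 2 of 3 in shNR4A3 cells. In shNT cells numbers were not shown to pair the control and LPS libraries, and the share of all genes moving alike is not given.

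The calls of AKR1B1 depended on the scaling of the libraries. TMM, the scaling used here, brought the median gene near 0, whereas with total counts alone the median log2 fold change of all genes with LPS was -0.188 in shNT, -0.233 in shNR4A2 and -0.211 in shNR4A3 cells. With total counts AKR1B1 was not called in any line (0.12, 0.30 and 0.19, with edgeR adjusted p of 0.448, 0.209 and 0.255), and relative to the median gene its change was 0.31, 0.53 and 0.40 with TMM and 0.30, 0.53 and 0.40 with total counts. The call was also lost in shNR4A2 cells without the first control library (0.37, adjusted p = 0.157), the third control library (0.56, 0.0668) or the third LPS library (0.41, 0.132). In shNR4A3 cells the same 3 omissions gave adjusted p of 0.0993, 0.0655 and 0.130. With a replicate block the adjusted p was 0.00622 in shNR4A2, where the count of called genes grew from 3050 to 4751, and 0.00408 in shNR4A3 cells.

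AKR1C2 was not called with LPS in any line. In shNT cells it stood at 53.4, 45.7 and 45.1 TPM without and 38.6, 41.5 and 37.1 TPM with LPS, which do not overlap, as in 40.1% of all genes tested, and its TMM-scaled log2 fold change was -0.09 (edgeR adjusted p = 0.570). By TPM, AKR1C1, AKR1C2 and AKR1A1 were lower with LPS in 3 of 3 pairs of libraries of 1 number in every line, where the median log2 TPM ratio of all genes was -0.233 in shNT, -0.282 in shNR4A2 and -0.238 in shNR4A3 cells. Numbers were not shown to pair the libraries in shNT cells. The TPM groups also stood apart, lower with LPS, for AKR1C1 in all 3 lines, AKR1C2 in shNR4A2 and AKR1A1 in shNR4A3 cells, as in 38.1% of all genes in shNR4A2 and 41.1% in shNR4A3 cells. For AKR1C3 in shNT cells the lowest control value (5.2878 TPM) and the highest value with LPS (5.28768 TPM) were practically tied. With total counts AKR1C2 (-0.26, adjusted p = 0.0429) and AKR1C1 (-0.36, adjusted p = 0.0347) were called lower in shNT cells. TMM-scaled values for AKR1C1 were -0.19, -0.01 and -0.16 in shNT, shNR4A2 and shNR4A3 cells, with adjusted p from 0.310 to 0.964, and AKR1C3 gave 0.12, 0.29 and -0.13, with adjusted p from 0.330 to 0.710. Of the 12 changes of AKR1C1, AKR1C2, AKR1C3 and AKR1A1 with LPS in the 3 lines, 9 turned in sign under at least 1 alternative (a scaling or a library left out), and the exceptions were AKR1C1 in shNT and shNR4A3 cells and AKR1C3 in shNR4A2 cells, so no direction is given for those 9. In shNR4A2 cells AKR1C2 stood at 542 ± 35.6 TPM without and 472 ± 21.2 TPM with LPS (SD, n = 3), of median ranks 216 and 293, and its TMM-scaled log2 fold change was 0.07 (edgeR adjusted p = 0.715).

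**Figure D4:**
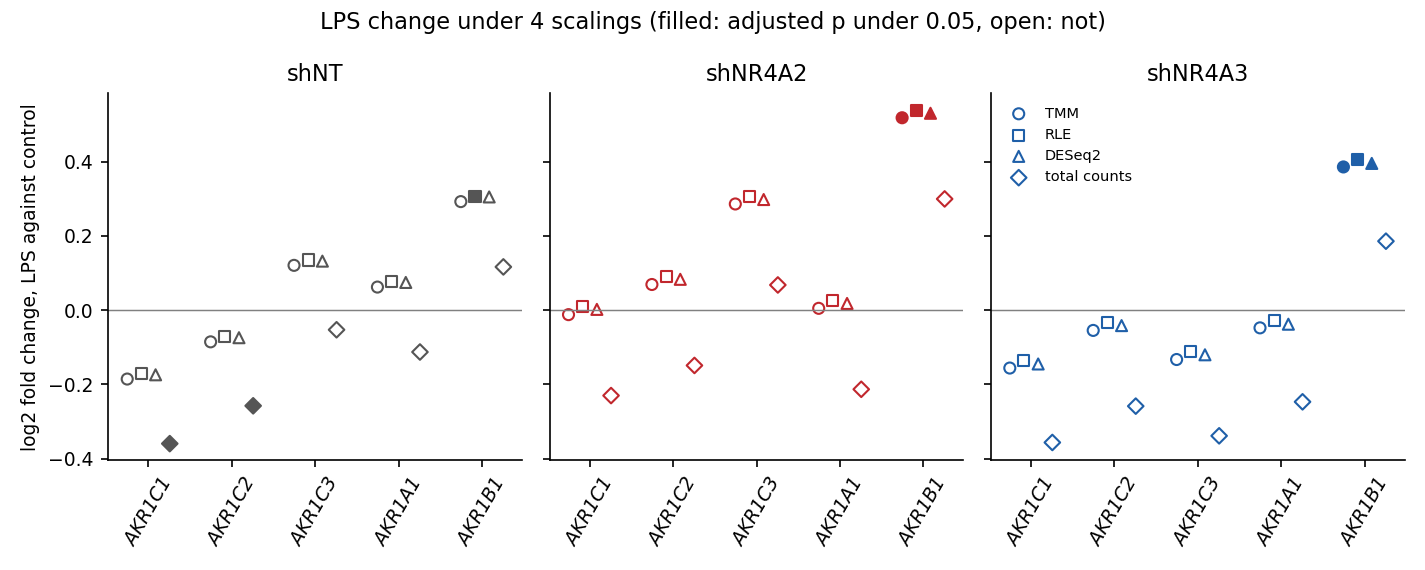
Log2 fold change with LPS of the 5 AKR1 genes in each line under 4 scalings of the counts, with filled points for an adjusted p under 0.05 and open points for the rest. Values with total counts lie about 0.2 below those with TMM, and AKR1B1 is filled in shNR4A2 and shNR4A3 cells with TMM but open in all lines with total counts.

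Whether LPS acted differently in the lines was tested as an interaction. No gene of 16674 (0%) was called for shNR4A2 against shNT by edgeR (365 at an unadjusted p under 0.05, and 2 called by DESeq2), and none of 16428 (0%) for shNR4A3 against shNT (824, and 10 by DESeq2). The estimate for AKR1C2 in shNR4A2 cells was 0.16 (95% confidence interval -0.12 to 0.44) and that for AKR1B1 was 0.23 (-0.20 to 0.66). AKR1C3 in shNR4A3 cells gave -0.26 (-0.80 to 0.28). The other estimates of the 5 genes lay between -0.11 and 0.18, and these intervals do not show that the lines respond alike. The AKR1C2 share of the AKR1C level also moved little with LPS, from 80.7% to 80.4% in shNT, 95.6% to 95.4% in shNR4A2 and 82.0% to 83.0% in shNR4A3 cells. Exact 2-sided permutation tests gave p = 0.8, 0.6 and 0.6 in that order, where 3 libraries against 3 allow no p under 0.1.

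Genes within 500 kb of AKR1C2 were examined in the described comparison of shNR4A2 with shNT cells. AKR1C7P, a transcribed pseudogene of the cluster, stood at 14.5 against 6.83 TPM without and 14.7 against 6.99 TPM with LPS (log2 fold change 1.09 and 1.13). Its groups did not overlap, as in 13.7% of all genes tested without and 10.8% with LPS. Its added reads equalled 0.217% and 0.250% of those added on AKR1C2. AL391427.1, the antisense gene inside AKR1C2, stood at 13.1 against 1.31 TPM without LPS (3.27 ± 0.453, SE), with 112 against 10 counts in all. Its exons share no base with those of AKR1C2. Since the counting was not stated to use strand, its reads and any from AKR1C2 introns cannot be told apart. LINC02561 gave 1.24 ± 0.398 without LPS, where the groups overlapped (141 against 52 counts), and 1.05 ± 0.257 with LPS, where they did not. At the edges of the cluster, AKR1E2, a reductase gene on the telomeric side, gave -0.34 and -0.23, and NET1, on the far side, gave 0.19 and 0.10. AL355303.1, a non-coding gene of the cluster, stood in the other direction without LPS (-0.87 ± 0.358, SE), with 38 against 62 counts. With LPS it had 20 against 14 counts (1.81 against 1.16 TPM) in overlapping groups, and no fold change was fitted. Of the protein-coding genes compared here, then, the 3 AKR1C genes were higher, AKR1E2 was slightly lower in every library, and NET1 was slightly higher in every library without LPS and overlapped with LPS. The share of all genes that stood lower in every shNR4A2 library is not given here.

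**Figure D5:**
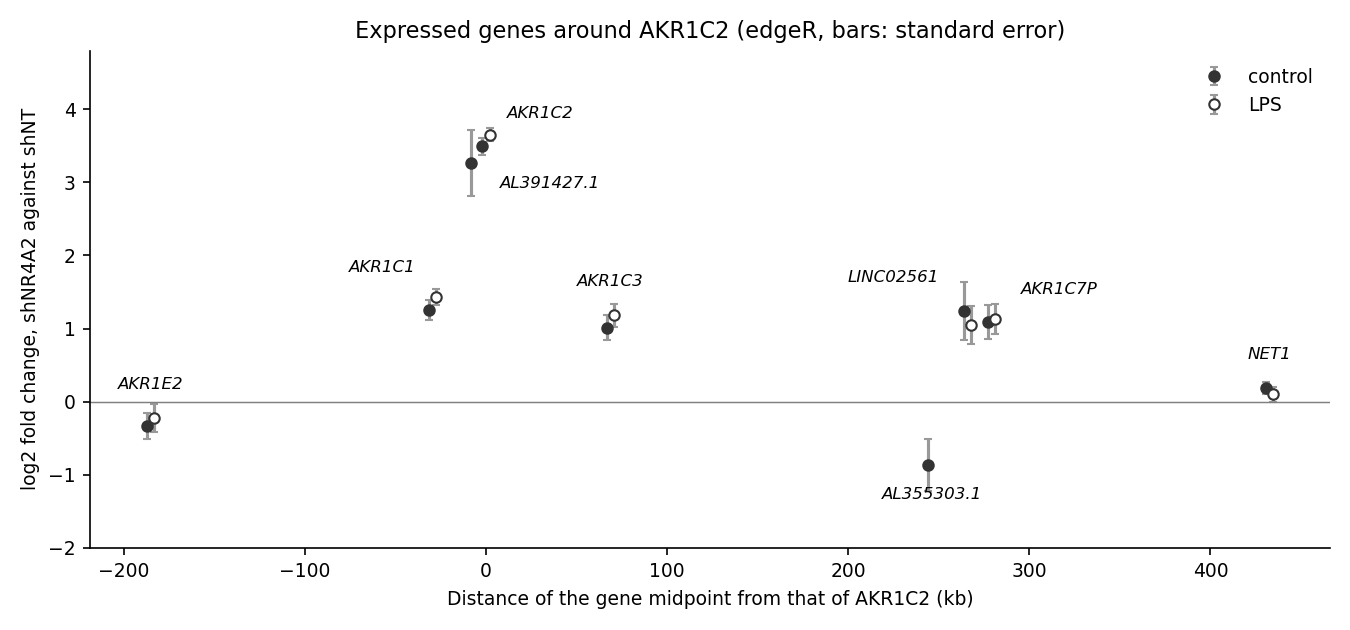
Log2 fold change of shNR4A2 against shNT (vertical axis, edgeR, bars are standard errors) for the expressed genes around AKR1C2, by the distance in kb of each gene's midpoint from that of AKR1C2, without LPS and with LPS. AKR1C2 and AL391427.1 stand above 3, AKR1C1, AKR1C3, AKR1C7P and LINC02561 near 1, AKR1E2 and NET1 near 0, and AL355303.1 at -0.87.

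Of 12 further genes of the superfamily, between 6 and 8 passed the filter, depending on the comparison. KCNAB2, a beta subunit of potassium channels built on the same fold, had the highest mean level over the 18 libraries (261 TPM), and AKR7A2, which reduces succinic semialdehyde, followed at 147 TPM. AKR1C7P had a mean of 10.3 TPM and AKR1E2 4.96 TPM, and the means of the others over the 18 libraries were under 2 TPM. AKR1D1, the bile acid 5-beta-reductase, had 20 counts over all libraries. In the tested comparisons 1 of these genes was called, AKR7L with LPS in shNR4A3 cells, which fell from 1.54 ± 0.413 to 0.603 ± 0.120 TPM (log2 fold change -1.12 ± 0.362, SE, edgeR adjusted p = 0.0389), a call lost under 8 of 12 alternatives. That was 14.3% of the 7 tested, against 28.1% of all genes. AKR1E2 stood lower in every shNR4A3 than in every shNT library in both states (-0.48 and -0.48), with edgeR adjusted p of 0.212 and 0.216. Such a separation was seen in 14.6% of all genes tested without and 17.5% with LPS. KCNAB2 gave values between -0.08 and 0.19 in all comparisons of a line with shNT or of LPS with control.

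Lists of genes from the pathways in which these enzymes act were set beside the family, with changes given as log2 fold changes. Of 34 targets and regulators of NRF2, 33 were tested in each LPS comparison, and 11 rose and none fell in shNT cells, 7 rose and none fell in shNR4A2 cells, and 10 rose and 2 fell in shNR4A3 cells. These were 33.3%, 21.2% and 36.4% of the list, against 24.9%, 19.3% and 28.1% of all genes called. The median log2 fold change of the list was 0.18, 0.33 and 0.25, against -0.01, -0.02 and -0.01 for all genes tested. NFE2L2, which encodes NRF2, rose by 2.52, 2.61 and 2.53, MAFF, a small partner protein of NRF2, by 2.73, 2.92 and 2.94, and FTH1, the ferritin heavy chain, by 2.24, 2.19 and 2.47. KEAP1, which holds NRF2 in check, fell by 0.36 and GCLC, a glutathione synthesis enzyme, fell by 0.30 in shNR4A3 cells (adjusted p = 0.00767 and 0.0443), the latter call being lost under 8 of 12 alternatives. With total counts the numbers were 7 higher and 4 lower, 6 and 1, and 8 and 4, with medians of 0.00, 0.11 and 0.05. With the replicate block 17 of the list were higher and 0 lower in shNR4A2 and 16 and 2 in shNR4A3 cells, where 30.1% and 39.4% of all genes were called, these being the lines in which control and LPS libraries of 1 number deviated together.

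In shNR4A3 against shNT cells 3 genes of the NRF2 list rose and 2 fell without LPS, 15.2% of the 33 tested against 7.23% of all genes, with a median of 0.14 against 0.00 for all genes. HMOX1, the haem oxygenase, rose by 0.92 ± 0.208 (SE, adjusted p = 0.0170), TKT, a pentose phosphate enzyme, by 0.43 and PRDX1, a peroxiredoxin, by 0.41, and ABCC1, an exporter of glutathione conjugates, fell by 0.44. The calls of HMOX1 and ABCC1 were each lost under 4 of 12 alternatives. The other gene that fell was SLC7A11, the cystine transporter (-0.62), named after its value was seen. With LPS only TKT of the 32 tested was called (0.39, adjusted p = 0.0196, lost under 4 of 12 alternatives), which is 3.12% against 6.45% of all genes, and with the replicate block 13 were higher and 1 lower, where 21.8% of all genes were called. For shNR4A2 against shNT cells, described only, 11 of 33 were called higher without and 12 with LPS and none lower, beside 3.63% and 4.31% of all genes called higher, and the median was 0.36 and 0.47, and nothing is read from these counts. OSGIN1, an oxidative stress growth inhibitor, stood at 41.3 ± 9.55 against 11.2 ± 2.41 TPM without LPS, NQO1, a quinone reductase, at 132 ± 34.3 against 70.8 ± 11.2 TPM and HMOX1 at 273 ± 88.1 against 129 ± 45.6 TPM. The AKR1 genes themselves were kept out of that list.

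Prostaglandins are substrates of AKR1C3, and 10 of 17 genes of their synthesis and breakdown were tested. LPS raised PTGS2, the inducible cyclooxygenase, by 6.12, 6.05 and 6.26 on the log2 scale in shNT, shNR4A2 and shNR4A3 cells. It lowered CBR1, a carbonyl reductase that also acts on prostaglandin E2 (-0.80, -0.80 and -1.22), a call lost in shNR4A2 cells under 2 of 12 alternatives, and the other 8 of the list were not called in any line. Called genes were thus 20% of those tested in each line, against 24.9%, 19.3% and 28.1% of all genes. PTGDS, a prostaglandin D synthase, fell in shNR4A3 cells from 19.7 ± 4.69 to 6.89 ± 3.34 TPM without LPS (log2 fold change -1.45 ± 0.276, SE, adjusted p = 0.00598) and from 21.3 ± 7.03 to 6.73 ± 2.23 TPM with LPS (-1.58, adjusted p = 0.0143). PTGS1, the constitutive cyclooxygenase, rose there by 0.34 with LPS, a call lost under 7 of 12 alternatives. In shNR4A3 against shNT cells 10% of the list was called without and 20% with LPS, against 7.23% and 6.45% of all genes. With the replicate block 1 of 10 was higher and 2 lower with LPS, which is 30% against 21.8% of all genes. In shNR4A2 cells PTGDS stood at 6.71 ± 2.13 and 7.59 ± 3.76 TPM, with TBXAS1, the thromboxane synthase, at 18.2 ± 2.64 against 10.4 ± 0.508 TPM in shNT control cells. PTGS1 also stood higher in shNR4A2 than in shNT cells, both without and with LPS, which is given as a description only.

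Of 37 genes of steroid hormone synthesis and conversion, 18 or 19 were tested. Called genes made up 5.26% without and 5.56% with LPS in shNR4A3 against shNT cells, against 7.23% and 6.45% of all genes, and 5.56%, 10.5% and 11.1% with LPS in shNT, shNR4A2 and shNR4A3 cells, against 24.9%, 19.3% and 28.1%. STAR, which brings cholesterol into mitochondria, fell in shNR4A3 cells by 1.08 without and 1.25 with LPS (adjusted p = 0.000964 and 0.00411). DHRS9, a retinol and steroid dehydrogenase, fell with LPS by 0.73, 0.78 and 1.08 in shNT, shNR4A2 and shNR4A3 cells, HSD17B1 fell in shNR4A2 cells by 0.91 and CYP19A1, the aromatase, rose in shNR4A3 cells by 1.66. In shNR4A2 cells the calls of DHRS9 and HSD17B1 were lost under 2 and 3 of 12 alternatives. With the replicate block 3 rose and 2 fell in shNR4A2 cells with LPS, 5 and 1 in shNR4A3 cells with LPS, and 2 and 3 where shNR4A3 was compared with shNT after LPS, where 30.1%, 39.4% and 21.8% of all genes were called. In shNR4A2 cells SRD5A1, the 5-alpha-reductase that makes dihydrotestosterone from testosterone, stood at 4.42 ± 0.533 against 1.93 ± 0.297 TPM in shNT control cells. STAR stood lower in shNR4A2 than in shNT control cells.

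Aldehyde and carbonyl detoxification, the third group, held 36 genes, of which 30 were tested with LPS. In shNT cells 5 rose and 2 fell, in shNR4A2 cells 3 and 1, and in shNR4A3 cells 3 and 2. Called genes made up 23.3%, 13.3% and 16.7% of those tested, below the 24.9%, 19.3% and 28.1% of all genes. ALDH1A1, a retinal dehydrogenase, rose by 5.08, 5.19 and 6.45 from group means under 0.34 TPM, ALDH1B1 by 0.88, 0.91 and 0.81 and ALDH2, the mitochondrial ethanol-pathway enzyme, by 0.73, 0.82 and 0.86. In shNR4A3 against shNT control cells ALDH2 rose by 0.40 (lost under 2 of 12 alternatives), and DHRS7, ALDH5A1 and ALDH1B1 fell by 0.55, 0.55 and 0.33, 4 of 30 in all against 7.23% of all genes, and the calls of ALDH5A1 and ALDH1B1 were lost under 5 and 7 of 12 alternatives. With LPS, ALDH2 was higher by 0.54 and DHRS7 and ALDH1B1 were lower in that comparison, the calls of ALDH2 and ALDH1B1 being lost under 2 and 5 of 12 alternatives, and with the replicate block 6 of 30 were higher and 5 lower, where 21.8% of all genes were called. For the polyol and glucuronate pathway of AKR1B1 and AKR1A1, 9 or 10 of 12 genes were tested. UGP2, which makes UDP-glucose, was called higher with LPS in shNT (0.66), shNR4A2 (0.68) and shNR4A3 cells (0.60, named after its value was seen since the groups overlap in TPM). KHK, the fructose kinase, fell in shNT cells by 0.74, a call lost under 7 of 12 alternatives. Called genes were 22.2%, 10% and 10% of those tested, against 24.9%, 19.3% and 28.1% of all genes. In shNR4A3 against shNT cells none was called without the block. With the replicate block 1 of 10 was lower there with LPS, where 21.8% of all genes were called. Among 23 retinoid genes, AKR1C3 and AKR1B10 being known as retinal reductases, 2, 3 and 2 rose and 6, 4 and 6 fell (53.3%, 41.2% and 50% of those tested, against 24.9%, 19.3% and 28.1% of all genes) with LPS in shNT, shNR4A2 and shNR4A3 cells, with RARA, a retinoic acid receptor, lower in each (-1.91, -1.92 and -2.10). CYP26B1, which breaks down retinoic acid, rose in shNR4A3 against shNT cells by 1.70 without and 2.27 with LPS, at levels under 1 TPM. RDH10, a retinol dehydrogenase, was higher in that comparison by 0.75 with LPS. CYP26B1 was not called under 7 of 12 alternatives without and 2 with LPS, nor RDH10 under 4. Called genes were 6.67% of the retinoid list without and 12.5% with LPS there, against 7.23% and 6.45% of all genes. With the replicate block 5 of 16 were higher and 2 lower with LPS, which is 43.75% against 21.8% of all genes.

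Finally, genes whose pattern over the 18 libraries was most like that of AKR1C2 were listed, by Pearson correlation of log2 CPM among 16934 genes. These points share lines, so the correlations largely restate the difference between shNR4A2 and the other lines and carry no p. AKR1C1 came first (0.983), then PTK2, the focal adhesion kinase (0.967), POU4F2, a POU-domain transcription factor (0.957), TMEM54 (0.942) and CLIC6 (0.941). PTK2 stood at 1.77 ± 0.186 TPM in shNT and 7.15 ± 0.492 TPM in shNR4A2 control cells. The genes with the most opposite pattern were SEZ6L2 (-0.991), HPRT1, a purine salvage enzyme (-0.985), and ERAP1, an aminopeptidase that trims peptides for antigen presentation (-0.982). SEZ6L2 stood at 155 ± 5.35 TPM in shNT and 47.8 ± 5.89 TPM in shNR4A2 control cells, and HPRT1 at 118 ± 12.6 and 32.4 ± 2.36 TPM. Within the family the correlation with AKR1C2 was 0.916 for AKR1C3, 0.469 for AKR1A1 and -0.193 for AKR1B1.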

How the data were processed

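For each of 18 libraries the authors deposited unnormalized read counts, whole numbers for each Ensembl gene, beside each gene's GRCh38 position and merged exon length in bases (GENCODE 29 gave symbols to 56898 of 57500 genes). The submitters' processing notes name Trimmomatic 0.36, STAR 2.5.2b, featureCounts and Subread 1.5.2, and the counting settings and strand were not given in the sources used here. TPM used the deposited lengths. Each comparison was fitted on its own libraries with edgeR 4.0.16 in R 4.3.3 (filterByExpr, TMM, quasi-likelihood F test, Benjamini-Hochberg adjustment over all genes tested), and a gene was called at an adjusted p under 0.05. The fits were tested on simulated data.

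Alternatives were DESeq2 1.42.0, RLE size factors, no filter, a replicate block, all 18 libraries in 1 fit, the AKR1C genes as 1 feature, each library left out, and, chosen after seeing the data, total counts without scaling factors. Replicate numbers were taken to pair libraries where deviations from the group means correlated above 0.1 at each of the 3 numbers. They did except in shNR4A3 against shNT without LPS, LPS in shNT cells and the interactions. P-values measure the spread between the libraries of a group. Share tests were exact permutations (scipy 1.17.1) and sequences were aligned with Biopython 1.88.

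The members and all gene lists were chosen with earlier results of these data known. The leading gene of 1 marker list is not reported here. From each list, up to 3 called genes per direction with the largest change and groups that did not overlap were named, beside the 7 members, the other genes of the superfamily and the 5 genes most like AKR1C2 and the 3 most opposite to it.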

Additional observations from a re-analysis of the deposited data

How the results depend on the processing

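Of 487 alternative values of the 35 tested log2 fold changes of AKR1 genes, 471 kept their direction where called and their side of the threshold, 8 lost a call, 8 gained one and none of those called turned. Those of AKR1C3 and AKR1B1 stand in the report. AKR1B1 in shNT cells was called with RLE (adjusted p = 0.0496), with the block (0.0119, where numbers were not shown to pair the libraries) and without the first LPS library (0.0380). Genes called in shNR4A3 against shNT cells without LPS numbered 2267 with the replicate block, where numbers were not shown to pair the libraries, and 649 to 975 with 1 library left out. With LPS they numbered 1839 without the filter, 3401 with the block and 383 to 1693 with 1 library left out, and the AKR1 genes called 1, 1 and 0 to 1. For LPS, AKR1 genes called in shNT cells numbered 1 with RLE, 2 with total counts, 1 with the block and 0 to 1 with 1 library left out, and in shNR4A2 and shNR4A3 cells 0 with total counts and 0 to 1 with 1 library left out. Genes called with LPS in shNR4A2 cells numbered 4751 with the block, 4601 with all 18 libraries in 1 fit and 2113 to 3375 with 1 library left out, against 3033 to 3461 in shNT and 3136 to 4863 in shNR4A3 cells. Interaction calls for shNR4A2 numbered 2 with DESeq2, 29 without the filter, 8 with the block and 0 to 8 with 1 library left out, and for shNR4A3 10, 138, 22 and 0 to 44, with no AKR1 gene among them. AKR1C2 in shNR4A2 against shNT cells gave 3.25 and 3.41 with the AKR1C genes as 1 feature, and 3.42 to 3.58 and 3.64 to 3.67 with 1 library left out. With 1 library left out the change in AKR1C2 share with LPS ran from -0.707 to 0.300, -0.262 to 0.0274 and -0.361 to 2.05 percentage points in shNT, shNR4A2 and shNR4A3 cells. By Spearman correlation 1 of the 5 genes most like AKR1C2 was the same. The cause was not tested. The block changed no other call of an AKR1 gene than these of AKR1C3 and AKR1B1. Counts of 5 or fewer per library for AKR1C4 and AKR1B10 limit what can be said of them.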
